A study of Mus musculus with 2 samples.

Results

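Airway club and secretory cells were taken as the cell barcodes in which the secretoglobins Scgb1a1 and Scgb3a2 together made up at least 5% of all UMIs (unique molecular identifiers, tags that count captured transcripts), with at least as many UMIs as Sftpc and none of the leukocyte gene Ptprc. Barcodes with fewer than 200 genes or more than 20% mitochondrial UMIs were left out. The rule found 52 cells among 18031 kept barcodes, 31 in the sham library and 21 in the library taken after hepatic ischemia-reperfusion (HIR). The secretoglobin counts therefore chose the cells, and their high level is not a result.

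The study profiled lung cells of wild-type animals by droplet sequencing (10x Genomics), with 1 library after sham surgery and 1 taken 6 h after HIR, a surgical model that clamps and then reopens the blood flow to the liver. Its title concerns immune heterogeneity in the lung after HIR. The labels name mouse, with no strain, age or number of animals pooled, while all 32883 features carry rat Ensembl identifiers, so symbols are those of the rat. Lungs were digested with collagenase, elastase and DNase and were not sorted. With 1 library per group there was no replicate and no test, so every ratio compares these libraries, and animal and treatment cannot be told apart.

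Club cells are the secretory cells of the conducting airways. They release secretoglobins and antimicrobial proteins into the airway lining fluid, carry cytochrome P450 enzymes that metabolize inhaled compounds, and can divide and renew the airway epithelium. Airway secretory cells also grade into mucus-making goblet cells, and in rodents they meet the surfactant-making alveolar type 2 cells where bronchioles end in alveoli.

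Secretory cells made up 0.328% of the kept sham barcodes (31 of 9438, exact Clopper-Pearson 95% interval 0.223 to 0.466) and 0.244% of the kept HIR barcodes (21 of 8593, 0.151 to 0.373). The ratio of these shares was 0.744, with a 95% interval of 0.406 to 1.34, so a difference in share was not detectable at these cell numbers. All intervals here cover counting error only. Within the cells the secretoglobins held a median of 66.4% of UMIs in sham (5.47 to 80.6) and 65.4% in HIR (16.8 to 77.4). The 3 lowest shares inside the threshold were 5.47%, 20.2% and 28.3% in sham and 16.8%, 41.7% and 43.8% in HIR. The highest shares outside it were 3.98% and 1.83% in sham and 4.29% and 2.80% in HIR.

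The secretory cells were deep. They held a median of 33110 UMIs in sham (827 to 164122) and 29702 in HIR (803 to 97176), beside 3603.5 and 3220 over all kept barcodes. In all, 1283300 sham and 611850 HIR UMIs stand behind the levels below. Scgb1a1 was also found outside these cells: 73.7% of the Ptprc-positive sham barcodes and 60.4% of the HIR ones had a UMI of it. Their median depths were 5490 and 4982.5 UMIs, and their median Scgb1a1 level was 215 and 111 CPM (counts per 1000000 UMIs). Whether free RNA carried it there was not tested. In the plot of secretoglobin share by cell, 3 sham and 4 HIR cells lie under 3000 UMIs, and 1 of them, the sham cell at 5.47%, held 17 UMIs of the type 1 cell gene Hopx among 1189. The libraries shared 24 barcodes, none of them a secretory cell.

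**Figure D1:**
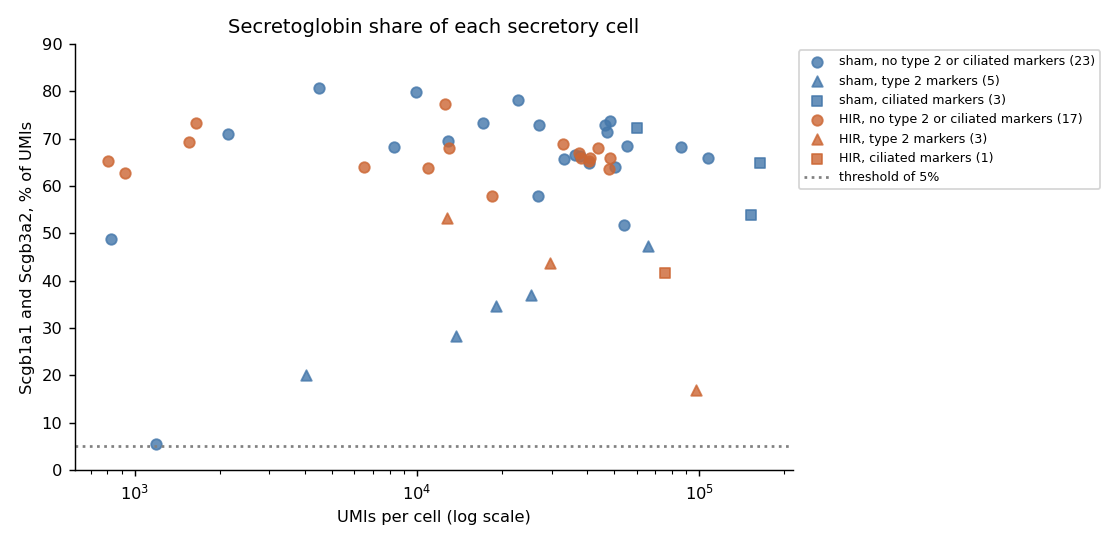
Each point is 1 secretory cell, with its UMIs on the x axis (log scale) and the share of Scgb1a1 and Scgb3a2 in its UMIs on the y axis; the dotted line is the threshold of 5%. Cells with type 2 markers (triangles) lie between 16.8% and 53.3%, below most others, and cells with ciliated markers (squares) have 60350 UMIs or more.

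The label was set beside its markers. The levels of Scgb1a1 and Scgb3a2 are no check of it, since these genes chose the cells. Scgb1a1 stood at 609287 CPM in sham and 527098 CPM in HIR, Scgb3a2 at 19539 and 12129 CPM, the whey acidic protein Wfdc2 at 3694 and 2855 CPM, the acidic chitinase Chia at 732 and 1433 CPM, Scgb3a1 at 406 and 1057 CPM and the P450 Cyp2a1 at 307 and 1577 CPM. Set beside all other kept barcodes, the leading genes were Cyp2a1 (329-fold), Scgb3a2 (268-fold), Scgb3a1 (197-fold), Chia (177-fold), Scgb1a1 (149-fold) and the retinal-oxidizing dehydrogenase Aldh1a1 (43.8-fold), a description that follows in part from the rule. The basal cell markers Krt5, Tp63 and Ngfr and the mucous peptide gene Tff2 were at 0 in both libraries, as were the lymphoid genes Cd3e, Cd79a and Nkg7. Other basal and goblet markers were present. The basal marker Krt15 had UMIs in 14 sham and 9 HIR cells, and the goblet marker Agr2 was at 557 and 273 CPM. Summed basal markers stood at 154 and 123 CPM, beside 7.18 and 51.8 CPM in other barcodes. That list includes Aqp3, which was also found in 17% of sham and 92.4% of HIR type 2 cells. The sums therefore do not follow Krt15, which alone had an HIR to sham ratio of 0.283. Summed goblet markers stood at 569 and 288 CPM, beside 6.82 and 5.29 CPM. Summed immune markers held a median of 106 CPM per sham cell (0 to 104671) and 394 CPM per HIR cell (0 to 60400); the list includes Lyz2, which type 2 cells also express.

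The cells were of several kinds, named here by leading genes and chosen after their values were seen. In 5 of 31 sham and 3 of 21 HIR cells, the type 2 genes Napsa (surfactant protein processing) and Slc34a2 (phosphate uptake) had at least 5 UMIs together. These 8 cells held Sftpc at 47629 CPM and Lyz2, the gene of lysozyme, at 43114 CPM, beside 101 and 308 CPM in the 40 cells with neither type 2 nor ciliated markers. They were unlike each other: 2 of the 3 HIR cells had 0 and 1 UMIs of Sftpc, the third 6239, and 2 of the 5 sham cells had 2 UMIs of Lyz2 each. Their Scgb3a2 was 966 CPM beside 20566 CPM, and Cyp2a1, Scgb3a1, Cyp2f4 and Bpifb1 were at 0 UMIs in all 8. Scrublet called 2 of the 8 as doublets, droplets that hold a pair of cells; whether the others were single cells was not tested.

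One of these cells weighs on the HIR sums. It held 97176 UMIs, the most of any HIR secretory cell, with secretoglobins at 16.8%, and was called a doublet. It alone carried 99.3% of all Sftpc, 85.7% of Napsa, 78.6% of Sftpa1 and 71.6% of Lyz2 UMIs of the HIR secretory cells. A further 3 sham and 1 HIR cells, of 60350 to 164122 UMIs, held at least 20 UMIs of the cilium genes Tppp3 and Dynlrb2, with Fam183a at 814 CPM beside 7.67 CPM in the 40 cells. The comparisons below are therefore set beside those 40 cells (23 sham, 17 HIR), an alternative chosen after the data were seen.

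The third kind was marked by Cyp2a1, which in the rat hydroxylates steroids. It made up 5 of 31 sham and 5 of 21 HIR cells, those with at least 500 CPM and at least 5 UMIs of Cyp2a1, which held 89.1% and 99.6% of its UMIs. A further HIR cell, with 3 UMIs of Cyp2a1 among 1560 (1923 CPM), did not reach the minimum of 5 UMIs. Scgb3a1 was found in 9 of these 10 cells, and the bactericidal-fold protein gene Bpifb1 in all 10, beside 3 and 5 of the 31 remaining cells that had no type 2 or ciliated markers. Depths were unlike, since the 10 cells held at least 10936 UMIs each and the 31 went down to 803. The summed Scgb3a1 level of the 10 cells was 3029 CPM beside 27.5 CPM, but 2 cells carried 416 and 524 of its 1140 UMIs, and the median per cell was 662 CPM. Chia and Cxcl3 ran the other way, at 521 and 449 CPM beside 1309 and 1420 CPM, and so did Sftpa1, at 462 CPM beside 2593 CPM. Chia was found in 7 of the 10 cells and 23 of the 31, and Cxcl3 in 9 and 29. By library, summed Chia was 856 CPM in the sham Cyp2a1 cells, with 145 of its 156 UMIs in 1 cell. It was 685 CPM in sham cells with neither Cyp2a1 nor type 2 markers, ciliated-marked ones included. In HIR these levels were 206 and 1953 CPM. Among the secretory cells, then, Cyp2a1, Scgb3a1 and Bpifb1 occurred together, while Chia and Cxcl3, summed over both libraries, were higher in the other cells.

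**Figure D2:**
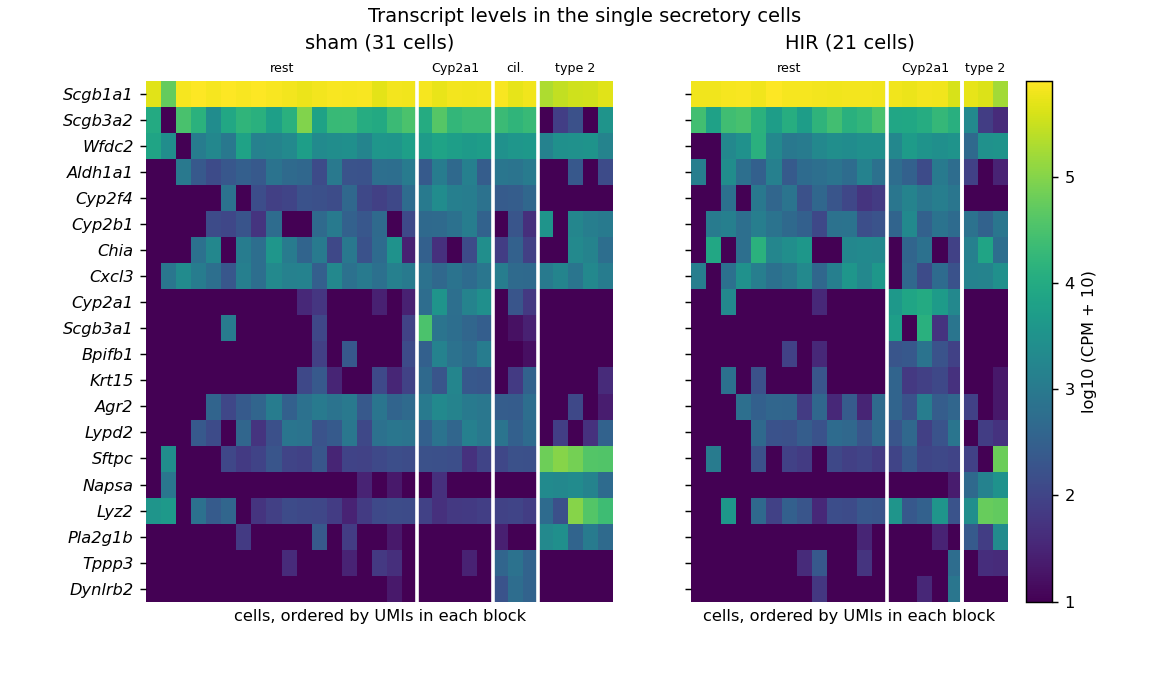
Each column is 1 secretory cell and each row 1 gene; the colour gives the level as log10 (CPM + 10), and white lines divide cells with Cyp2a1, with ciliated markers (cil.), with type 2 markers and the rest. Cyp2a1, Scgb3a1 and Bpifb1 share a block in both libraries, and the type 2 block lacks them; the 1 HIR cell with ciliated markers also had Cyp2a1 and stands at the right edge of the Cyp2a1 block.

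Levels were compared between HIR and sham as the ratio of CPM summed over cells, for the 549 genes that reached 100 CPM in sham or HIR and held 20 UMIs over both. Of these, 25 (4.55%) were at least 2-fold higher in HIR and 10 (1.82%) at least 2-fold lower. The background was not centred: 405 genes were higher and 144 lower, a split of 73.8% to 26.2%, with a median log2 ratio of 0.28 after 10 CPM was added. Scgb1a1 itself made up 60.9% of the sham and 52.7% of the HIR UMIs. With secretoglobin, mitochondrial and ribosomal protein UMIs left out of the total, the split was 53.2% to 46.8% and the median 0.03, a shift of -0.25, and over the 40 cells the median of the same genes was 0.00. A ratio modestly above 1 on the scale of all UMIs is therefore the level of the typical gene. Of the 549 genes, 50.3% were higher over the 40 cells and 55.6% in alveolar type 2 cells. The counts by gene list below are to be read beside these shares. Over the 40 cells, 14 of 440 genes (3.18%) were at least 2-fold higher and 12 (2.73%) at least 2-fold lower.

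Cyp2a1 had the highest ratio over all cells among the genes named by rule; over the 40 cells Dram1 was higher, at 5.89 from 20 UMIs. It stood at 307 CPM in sham and 1577 CPM in HIR, a ratio of 5.14 (4.56 to 5.79), and at 4.50 (3.97 to 5.11) over the 40 cells. After each cell was thinned to 8000 UMIs, 7 of 26 sham and 5 of 16 HIR cells had a UMI (11 of 31 and 7 of 21 unthinned), beside 0.0981% and 0.383% of Ptprc-positive barcodes. In the 5 sham cells of the Cyp2a1 kind it ran from 543 to 3399 CPM with a median of 1545, and in the 5 HIR cells from 1936 to 9707 with a median of 4822. The ranges overlapped. Cyp2a genes are near-identical copies, so reads may be split between them.

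In the same cells several secreted and mucous-type genes had lower medians in HIR, but not Scgb3a1, whose medians were 576 CPM (287 to 32241) in sham and 803 CPM (0 to 12812) in HIR. Bpifb1 had a median of 686 CPM (310 to 1494) in the sham cells of this kind and 183 CPM (79.0 to 734) in the HIR ones. Agr2, a folding enzyme that mucus-making cells need, had medians of 1008 CPM (880 to 2129) and 366 CPM (163 to 1174). The surface protein gene Lypd2 had medians of 710 and 183 CPM, and the keratin gene Krt15 218 and 73.3 CPM. The ranges overlapped for each of these genes. Wfdc2 ran from 4755 to 7023 CPM in sham and from 1829 to 4943 CPM in HIR, with medians of 5278 and 3252. Cells of 1 library are not replicates of a condition, and these cells were chosen on Cyp2a1 itself.

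**Figure D3:**
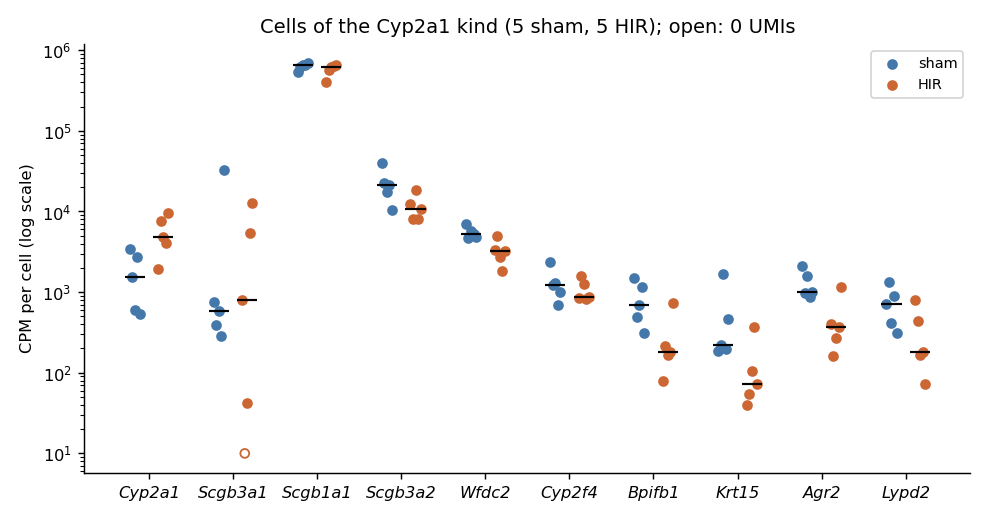
Each point is the level of 1 gene in 1 of the 10 secretory cells with at least 500 CPM and 5 UMIs of Cyp2a1, in CPM on a log scale, with sham and HIR cells side by side and a line at the median; an open point at the foot of the axis is a cell with 0 UMIs. The HIR median is above the sham median for Cyp2a1 (4822 and 1545 CPM) and Scgb3a1 (803 and 576 CPM) and below it for the other genes shown.

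Among the other secreted products, Scgb3a1, the secretoglobin of proximal airways, was at 406 and 1057 CPM, a ratio of 2.60 (2.32 to 2.93) and of 2.22 over the 40 cells, but 1 cell in each library held 79.9% and 81.0% of its UMIs and the mean over single cells gave a ratio of 0.795. Scgb3a2 was lower in HIR, at 0.621 (0.605 to 0.637), or 0.717 over the 40 cells, with nearly equal medians per cell of 12896 and 12246 CPM. Scgb1a1 was at 0.865 (0.862 to 0.869), 0.994 over the 40 cells and 1.03 as a mean over single cells, so its direction changed with the setting. Scgb3a2 and Scgb1a1 chose the cells, so their ratios are a description only. Wfdc2 was lower in HIR at 0.773 (0.731 to 0.817), at 0.696 over the 40 cells and at 0.726 (0.699 to 0.754) in alveolar type 2 cells of the same libraries. Those type 2 cells, 353 in sham and 278 in HIR, were taken as Ptprc-free barcodes with at least 5% Sftpc.

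Several genes, of secreted proteins and of other kinds, were lower over all secretory cells as well. Agr2 was at 557 CPM in sham and 273 CPM in HIR, a ratio of 0.490 (0.411 to 0.581), and was at 0.467 over the 40 cells. Lypd2 was at 528 and 291 CPM (0.551, 0.464 to 0.650), Bpifb1 at 144 and 85.0 CPM (0.589, 0.425 to 0.806) and its relative Bpifa5 at 316 and 204 CPM (0.646, 0.524 to 0.791). Haptoglobin, Hp, the hemoglobin-binding protein, was at 121 and 52.3 CPM (0.433, 0.286 to 0.637). Without the cell with the most UMIs of the gene in each library, the ratio of Bpifb1 was 0.391 and that of Hp 0.268. Without called doublets Hp was at 0.698. A tie in the doublet scores decided the calls of sham cells that held 20 and 38 Hp UMIs. The tetraspanin gene Tspan1 was at 227 and 108 CPM, a ratio of 0.476 (0.358 to 0.623). Krt15 was at 150 and 42.5 CPM, a ratio of 0.283 (0.180 to 0.427) but 0.639 as a mean over single cells, and Sox2, a transcription factor of the conducting airways, had 116 and 23 UMIs, a ratio of 0.416 (0.254 to 0.655). Each of these 8 genes was also lower over the 40 cells, at 0.343 to 0.660. Of the 11 measured genes of the list of secreted airway proteins, 5 were higher and 6 lower over all cells, with a median log2 ratio of 0.00, and 2 were higher and 9 lower over the 40 cells.

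Chia went against these. It stood at 732 and 1433 CPM, a ratio of 1.96 (1.78 to 2.15), at 1.5 (1.34 to 1.67) over the 40 cells and at 3.05 as a mean over single cells. It was found in 24 of 31 sham and 15 of 21 HIR cells, with per-cell medians of 327 and 660 CPM and highest cells of 3741 and 13545 CPM. Alveolar type 2 cells held far less of it, but there it was found in 7 of 353 sham cells (1.98%) and 61 of 278 HIR cells (21.9%), at median depths of 14338 and 14194 UMIs. Its summed level in them was 1.45 and 50.1 CPM, a ratio of 34.5 (17.2 to 81.0), and the HIR type 2 cell with the most held 15.7% of the UMIs. In Ptprc-positive barcodes 0.425% and 0.799% had a UMI of Chia. Chia was therefore higher in HIR in both epithelial populations.

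**Figure D4:**
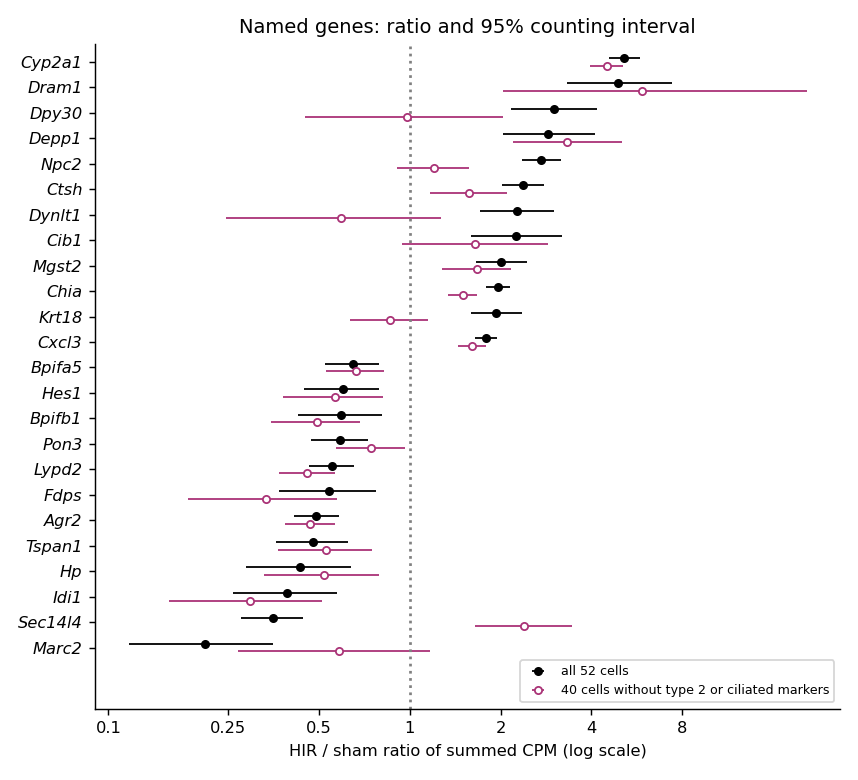
Points give the HIR to sham ratio of summed CPM (log scale) for the 24 genes named by rule, with bars for the 95% counting interval; filled points are all 52 cells and open points the 40 cells without type 2 or ciliated markers. Open points of Dpy30, Dynlt1, Krt18 and Sec14l4 lie on the other side of 1 from the filled ones.

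The rule for named genes gave 12 genes in each direction. Of the 12 higher in HIR, 9 kept their direction over the 40 cells, and for 7 the interval there left out 1. Of the 12 lower, 11 kept it and 10 had such an interval. Besides Cyp2a1 and Chia, the genes with such an interval were Dram1, a lysosomal membrane protein of autophagy (29.6 and 145 CPM), Depp1, a target of FOXO factors (46.0 and 132 CPM), the lysosomal protease Ctsh (229 and 544 CPM), the glutathione transferase Mgst2 (167 and 337 CPM) and the chemokine Cxcl3. Dram1 had a ratio of 4.91, but 70.8% of its HIR UMIs were in 1 cell. Without the cell with the most Dram1 UMIs in each library the ratio was 2.05. Over the 40 cells Dram1 had 5 and 15 UMIs (5.89, 2.03 to 20.7); without called doublets it was 1.77, and the mean over single cells gave 1.05. Ctsh had 2.38 (2.03 to 2.79), 1.57 over the 40 cells, 1.30 without called doublets and 1.02 as a mean over single cells. Depp1 had 2.88 (2.03 to 4.10), 3.32 over the 40 cells and 4.07 (2.72 to 6.22) in type 2 cells.

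For other genes the ratio depended on the cells with type 2 or ciliated markers. Npc2, the lysosomal cholesterol carrier, had a ratio of 2.73 (2.35 to 3.17) over all cells and 1.2 (0.909 to 1.57) over the 40. Dpy30, a subunit of histone methyltransferase complexes, had 3.0 and 0.981, the dynein light chain gene Dynlt1 2.26 and 0.589, the keratin gene Krt18 1.93 and 0.858, and the lipid-binding protein gene Sec14l4 0.350 and 2.38. Cib1, a calcium-binding protein gene, had 2.25 and 1.65, with an interval of 0.939 to 2.87 for the latter. Marc2, a mitochondrial reductase, was at 125 and 26.2 CPM, a ratio of 0.210 (0.117 to 0.351), and at 0.583 (0.268 to 1.17) over the 40 cells. Markers of type 2 cells moved in the same way: Napsa was at 4.75 over all cells, with 4 and 0 UMIs left in the 40 cells, and Sftpa1 at 1.77 over all cells and 0.642 over the 40.

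The chemokine genes differed from each other. Cxcl3, a ligand of the neutrophil receptor CXCR2, was in 30 of 31 sham and 19 of 21 HIR cells, at 902 and 1613 CPM and with per-cell medians of 841 and 1231 CPM. Its ratio was 1.79 (1.64 to 1.95) and 1.60 (1.44 to 1.78) over the 40 cells; in type 2 cells it was 2.87 (2.78 to 2.97), from 1001 to 2875 CPM. Cxcl1, a ligand of the same receptor, had a ratio of 0.759 (0.638 to 0.898) over all cells and 4.68 over the 40. Over the 40 cells it had 73 sham and 174 HIR UMIs, 125 of the latter in 1 cell. The ratio over all cells was 0.362 without the cell with the most Cxcl1 UMIs in each library. Those cells held 26.7% and 66.8% of the Cxcl1 UMIs. After thinning, 15 of 26 sham and 4 of 16 HIR cells had a UMI of Cxcl1 (19 of 31 and 8 of 21 unthinned), beside 16.1% and 19.97% of Ptprc-positive barcodes. These genes are close copies of each other, and reads may be split between them. Of the 5 measured genes of the NF-kB and chemokine list, 3 were higher and 2 lower, with a median log2 ratio of 0.61, and 5 were higher over the 40 cells; Sod2, the mitochondrial superoxide dismutase, had 1.56 (1.24 to 1.95), or 1.27 (0.931 to 1.72) over the 40 cells.

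Xenobiotic metabolism was mixed. Of its 15 measured genes, 8 were higher and 7 lower over all cells, with a median log2 ratio of 0.02, and 12 were higher and 3 lower over the 40 cells, with a median of 0.23. Cyp2b1, a P450 of drug metabolism, was at 358 and 556 CPM, a ratio of 1.55 (1.35 to 1.79), or 1.43 over the 40 cells, with per-cell medians of 190 and 605 CPM. Cyp2f4, the P450 that activates naphthalene, was at 373 and 420 CPM, a ratio of 1.13 (0.963 to 1.31), or 1.07 over the 40 cells. With secretoglobin, mitochondrial and ribosomal protein UMIs left out of the total, Cyp2f4 was at 0.937. The quinone reductase Nqo1 was at 295 and 389 CPM (1.32, 1.12 to 1.56; 1.70 over the 40 cells), and the glutathione transferase Gstp1 at 380 and 634 CPM (1.67, 1.46 to 1.91), but at 1.15 (0.958 to 1.37) over the 40 cells. Aldh1a1 had 0.829 over all cells and 1.18 over the 40, and the P450 Cyp4b1 0.719 and 1.2, so neither had a direction that held. The carboxylesterase Ces1d was at 769 and 600 CPM (0.780, 0.690 to 0.880; 0.867, 0.746 to 1.004, over the 40 cells) and Pon3, a lactone-cleaving paraoxonase, at 306 and 180 CPM (0.587, 0.471 to 0.727; 0.744 over the 40 cells). Cyp2b and Gst genes have near-identical copies.

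The 7 sterol synthesis genes reported here were lower in HIR, which leaves 2 genes of the list aside. Idi1, which isomerizes the isoprene units, was at 134 CPM in sham and 52.3 CPM in HIR, a ratio of 0.390 (0.259 to 0.572), and Fdps, which joins them to farnesyl diphosphate, at 115 and 62.1 CPM, a ratio of 0.539 (0.367 to 0.774), or 0.334 over the 40 cells. They were the only measured genes among the 17 reported here from the list of fatty acid and sterol synthesis. The other reported genes of the sterol arm lay under 100 CPM, and the split of the list into arms was made after the values were seen. Over the 7 reported sterol genes together there were 616 sham and 143 HIR UMIs, or 480.01 and 233.7 CPM, a ratio of 0.487 (0.403 to 0.585). Per cell the sum had a median of 406 CPM in sham (0 to 1455) and 98.4 CPM in HIR (0 to 641), and 4 and 6 cells were at 0.

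By gene, each of these 7 was lower in HIR, over all cells and over the 40 cells. Insig1, which holds the sterol sensor in the endoplasmic reticulum, had 114 and 24 UMIs (0.442, 0.272 to 0.690), Hmgcs1, the synthase of the first committed precursor, 53 and 12 (0.475, 0.231 to 0.900), and Srebf2, the transcription factor of the pathway, 52 and 12 (0.484, 0.235 to 0.919). As means over single cells Hmgcs1 was at 0.862, Srebf2 at 0.273 and Fdps at 0.294. The intervals of Sqle and Fdft1 held 1. Over the 40 cells the sum stood at 0.388 (0.295 to 0.504). In alveolar type 2 cells the same sum was 1137 and 1009.6 CPM, a ratio of 0.888 (0.854 to 0.923), with 2 of the 7 genes lower; whether the difference from secretory cells exceeds that between animals could not be tested. The other 10 reported genes of the list, among them Fasn and Acly, had a ratio of 1.21 (0.954 to 1.52) in secretory cells, 0.785 (0.518 to 1.17) over the 40 cells and 0.722 (0.702 to 0.744) in type 2 cells, so their direction did not hold.

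**Figure D5:**
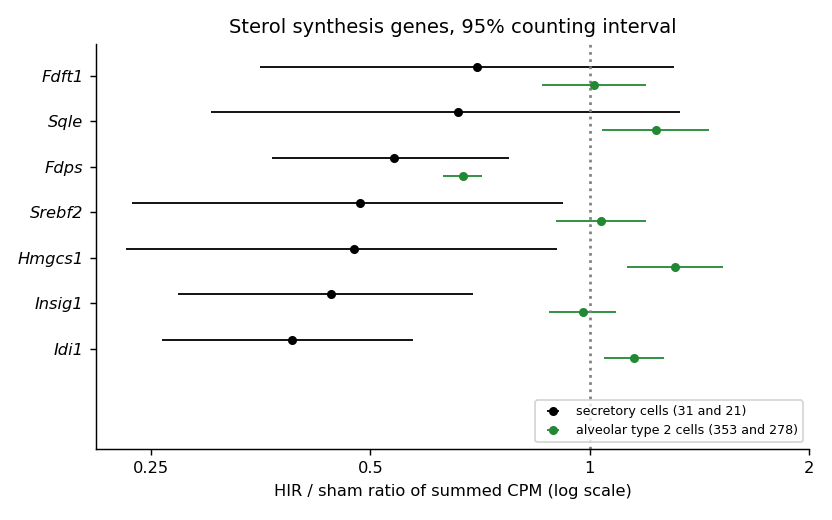
For each of the 7 reported sterol genes, the HIR to sham ratio of summed CPM (log scale) is shown with its 95% counting interval in secretory cells (black) and alveolar type 2 cells (green). In secretory cells all 7 points lie below 1, in type 2 cells 2 of the 7.

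Idi1 and Hmgcs1 are shown with the bases before their start, since the sterol genes were lower together. Promoters are the mouse sequences of RefSeq (GRCm38.p6), for which 5 of the 9 genes looked up had an entry, while the counts carry rat identifiers. Capitals mark CCAAT (or ATTGG on the other strand), the box bound by NF-Y, and TCACNCCAC on either strand, a form of the sterol regulatory element; the 2 motifs do not overlap here. Among 32851 RefSeq mouse promoters of the same 250 bases, 33.8% held CCAAT and 1.05% held TCACNCCAC. Idi1 lies on the plus strand at chr13:8885356-8885605 and Hmgcs1 on the plus strand at chr13:119690101-119690350.
Idi1: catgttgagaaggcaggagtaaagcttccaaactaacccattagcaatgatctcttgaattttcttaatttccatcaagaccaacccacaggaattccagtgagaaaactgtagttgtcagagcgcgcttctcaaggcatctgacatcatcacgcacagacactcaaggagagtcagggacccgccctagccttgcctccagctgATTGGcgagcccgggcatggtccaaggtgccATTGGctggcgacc
Hmgcs1: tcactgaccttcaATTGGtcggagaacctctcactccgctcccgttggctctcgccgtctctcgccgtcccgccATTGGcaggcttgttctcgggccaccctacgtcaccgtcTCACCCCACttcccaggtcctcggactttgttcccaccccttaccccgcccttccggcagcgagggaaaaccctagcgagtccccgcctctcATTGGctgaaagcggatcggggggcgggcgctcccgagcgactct
Hmgcs1 held TCACNCCAC once, starting 137 bases before the start, and CCAAT in 3 places. Idi1 held CCAAT in 2 places, starting 45 and 14 bases before the start, and TCACNCCAC was not among its letters in this window. Insig1 and Srebf2, also looked up but not printed, held CCAAT starting 216 and 135 bases before the start. TCACNCCAC was not among the letters of either. A match in the letters is a description, not a binding site.

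The glucocorticoid response, genes induced through the receptor of adrenal steroids, had 5 measured members of 28. Of these, 4 were higher and 1 lower in HIR, with a median log2 ratio of 0.31, near the 0.28 of all measured genes, and all 5 were higher over the 40 cells. The median over the same genes was 0.31 in type 2 cells, beside 0.03 for all 549 genes there. Tsc22d3, the gene of the anti-inflammatory protein GILZ, was at 94.3 and 167 CPM, a ratio of 1.77 (1.35 to 2.32), or 1.39 (0.974 to 1.97) over the 40 cells and 1.08 as a mean over single cells, the sulfotransferase Sult1a1 at 270 and 413 CPM (1.53, 1.30 to 1.80; 1.25, 0.994 to 1.56, over the 40 cells) and the transcription factor gene Cebpb at 248 and 311 CPM (1.25, 1.04 to 1.5; 1.46 over the 40 cells). With every member of at least 20 UMIs taken, 11 of 14 were higher on all UMIs, 9 with secretoglobin, mitochondrial and ribosomal protein UMIs left out of the total and 12 in type 2 cells. Of the 549 measured genes, 73.8%, 53.2% and 55.6% were higher on the same scales. Cebpd had 38 and 43 UMIs, a ratio of 2.37 (1.5 to 3.77), 3.93 over the 40 cells and 1.53 as a mean over single cells. Ddit4, the brake on mTORC1, had 113 and 34 UMIs, a ratio of 0.631 (0.417 to 0.933) and of 0.258 (0.119 to 0.501) over the 40 cells, while in type 2 cells it was 1.66 (1.45 to 1.90).

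Protein folding genes were lower over the 40 cells. Of the 8 measured genes of the endoplasmic reticulum list, 3 were higher and 5 lower over all cells, with a median log2 ratio of -0.11, and all 8 were lower over the 40, with a median of -0.35; in type 2 cells the median was -0.13. Hspa5, the chaperone BiP, was at 265 and 165 CPM (0.623, 0.494 to 0.780; 0.581 over the 40 cells) and the disulfide isomerase Pdia6 at 188 and 126 CPM (0.670, 0.512 to 0.870; 0.467 over the 40 cells). Of the 15 measured genes of heat shock and tissue dissociation, 4 were higher and 11 lower over all cells, 7 higher and 8 lower over the 40 cells, and 9 higher in type 2 cells. The immediate early gene Fos was at 361 and 152 CPM (0.421, 0.333 to 0.527), Egr1 at 155 and 85.0 CPM (0.548, 0.396 to 0.747), and the small heat shock protein gene Hspb1 at 1124 and 1925 CPM (1.71, 1.58 to 1.85). Over the 40 cells the ratios of Fos, Egr1 and Hspb1 were 0.714, 0.981 and 1.76, and as a mean over single cells Egr1 was at 0.284. Digestion of the tissue is known to induce Fos and Egr1, and its part in the difference was not tested.

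Ion and water transport had 5 measured genes, all higher, with a median log2 ratio of 0.39, beside 73.8% of all measured genes higher and a median of 0.28. Over the 40 cells 4 were higher, and 3 with secretoglobin, mitochondrial and ribosomal protein UMIs left out of the total. The sodium channel subunit Scnn1a was at 75.6 and 123 CPM (1.62, 1.18 to 2.22; 2.01 over the 40 cells) and the sodium pump subunit Atp1b1 at 345 and 456 CPM (1.32, 1.13 to 1.54; 1.36 over the 40 cells). The water and glycerol channel Aqp3 had 3 UMIs in 3 sham cells and 44 UMIs in 5 HIR cells, 77.3% of them in 1 cell. Its ratio was 30.8 (9.86 to 155), 5.23 (1.26 to 30.6) over the 40 cells and 7.05 without called doublets. In type 2 cells Aqp3 was found in 60 of 353 sham cells (17%) and 257 of 278 HIR cells (92.4%), at 15.6 and 479 CPM, beside 0.785% and 1.79% of Ptprc-positive barcodes. Aqp3 was named after its values were seen.

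Of the remaining lists, NRF2 and antioxidant genes had 6 of 9 higher, 4 of 9 over the 40 cells and 2 of 9 with secretoglobin, mitochondrial and ribosomal protein UMIs left out of the total. Among all 549 measured genes, 73.8%, 50.3% and 53.2% were higher on the same scales. Epithelial junctions and keratins had 5 of 8 higher, and 2 of 8 over the 40 cells; Krt8 was at 248 and 427 CPM (1.72, 1.46 to 2.03; 1.5 over the 40 cells). Protease inhibitors had 4 of 6 higher, acute phase and complement 1 of 3 (2 over the 40 cells), Notch and airway fate 1 of 3, growth brakes and fasting 2 of 3, and hypoxia and glycolysis 2 of 2 (1 over the 40 cells). The Notch target gene Hes1 was at 178 and 106 CPM, a ratio of 0.598 (0.447 to 0.791), and at 0.563 over the 40 cells. No gene of the circadian clock, interferon or metallothionein lists reached 100 CPM. Among the same 549 genes in type 2 cells, 12 (2.19%) were at least 2-fold higher and 4 (0.729%) at least 2-fold lower.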

How the data were processed

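Single-cell RNA was measured in 2 lung libraries (1 sham, 1 HIR). The deposited matrices hold counts of UMIs per gene and barcode, whole and not normalized; cellranger 5.0.0 wrote them, per the file headers. The submitters' processing notes name Cell Ranger 6.0, STAR, Seurat 4.0 and mm10, yet all features are rat Ensembl identifiers. The libraries held 59566745 and 50801778 UMIs over 10719 and 9499 barcodes. The cells and gene lists were chosen with earlier results of these data known.

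UMIs were summed per gene over the secretory cells and divided by their total (CPM). Ratios carry exact conditional binomial 95% intervals. The simulated counts on which they were tried held counting error only, so that trial does not cover unevenness between cells. A gene was named when measured, when its interval left out 1, when it had UMIs in at least 25% of cells of the higher library and when its CPM there was at least 50% of that in all other barcodes, against free RNA. Mitochondrial, ribosomal protein, hemoglobin, sex-linked and immune receptor genes, markers of other cell types and the genes of the rule were left out. The 12 in each direction whose interval bound nearest 1 lay farthest from it were named; listed genes, list examples, and Krt15, Sox2, Ddit4, Aqp3 and the sterol genes were picked after values were seen. Doublets were scored with Scrublet (scanpy 1.11.5), called at 0.8% per 1000 barcodes, and kept in the main values. In sham the cutoff fell within a tie of scores (0.133), which was broken by barcode order. At that score the secretory cells of 26770 and 164122 UMIs were called, and those of 50470 and 37862 UMIs were not. Shares of cells were compared after thinning to 8000 UMIs, which left out 5 cells in each library. Work was done in Python 3.11.15 with scipy 1.17.1. For the list of fatty acid and sterol synthesis, 2 of its 19 genes are not reported here.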

Additional observations from a re-analysis of the deposited data

How the results depend on the processing

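The share ratio of 0.744 stayed between 0.731 and 0.927 in every alternative run (secretoglobins at least 10% or 2% of UMIs, 10% mitochondrial maximum, no Ptprc condition, called doublets left out, only Ptprc-free barcodes counted, no type 2- or ciliated-marked cells), always inside its interval. The median of the glucocorticoid list, 0.31, ranged from 0.10 (means over single cells) to 0.53 (no type 2-marked cells). No paired analysis was possible because each group has 1 library.

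Of 549 measured genes, 25 and 10 were at least 2-fold higher and lower in HIR. With secretoglobin, mitochondrial and ribosomal protein UMIs left out of the total, the counts were 57 and 114 of 2029 genes. As means over single cells they were 46 and 71 of 578. Without the cell with the most UMIs of each gene they were 5 and 13 of 463, and without called doublets 14 and 15 of 512. A minimum of 1 UMI gave 2775 and 2820 of 12017, and a minimum of 200 CPM and 40 UMIs 12 and 5 of 281. In the 40 cells they were 14 and 12 of 440. The number of measured genes thus changed with each of these settings, and the counts are to be read beside it. Other causes were not tested.

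These directions turned, with the cause not tested. In the 40 cells, Aldh1a1 was at 1.18, Cxcl1 at 4.68 (125 of its 174 HIR UMIs in 1 cell), Cyp4b1 at 1.2, Dpy30 at 0.981, Dynlt1 at 0.589, Krt18 at 0.858, Napsa at 0, Sec14l4 at 2.38, Sftpa1 at 0.642 and Sftpb at 0.996. Leaving out only type 2-marked cells gave Cxcl1 2.24, Napsa 0.612, Sftpa1 0.668 and Sftpb 0.963, and only ciliated-marked cells Dynlt1 0.687 and Sec14l4 1.90. Without called doublets Aldh1a1 was at 1.11, Lyz2 at 0.945, Napsa at 0.734, Sftpa1 at 0.398 and Sftpb at 0.890. These values depend in part on the tie in the sham doublet scores. Means over single cells gave Aldh1a1 1.45, Napsa 0.792, Scgb1a1 1.03, Scgb3a1 0.795 and Sftpa1 0.589. Without the top cell of each gene Dynlt1 was at 0.422, Sftpa1 at 0.534 and Sftpb at 0.915. With secretoglobin, mitochondrial and ribosomal protein UMIs left out of the total Sftpb was at 0.971. Depth limits what was seen: 21 HIR cells with 281924 UMIs other than the secretoglobins leave most transcription factors and receptors under 20 UMIs.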

Other observations

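A further 5 sham and 5 HIR barcodes passed the secretoglobin threshold but held at least 1 UMI of the leukocyte gene Ptprc, and so were not counted as secretory cells. They held a median of 28434 UMIs in sham (1591 to 120107) and 40983 in HIR (1829 to 90328), with 1 to 11 and 1 to 9 Ptprc UMIs. Secretoglobins made up a median of 60.7% of their UMIs in sham and 48.8% in HIR. None of the 10 was called a doublet by Scrublet. With them counted, the share ratio was 0.793.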
